A study of Mus musculus with 202 samples.

Results

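At ovulation the cumulus cells that surround the oocyte lay down a hyaluronan-rich matrix and the cumulus layer expands. Luteinising hormone acts first on the outer follicle wall, where it induces the epidermal growth factor-like ligands amphiregulin (Areg) and epiregulin (Ereg). These act on the cumulus cells, which then make hyaluronan and prostaglandin and the proteins that crosslink the matrix. In the textbook account the oocyte does not make this matrix. It secretes factors to which the cumulus cells respond.

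The 10 cumulus matrix and ovulatory response genes were taken by name from the 23995 gene symbols of the count table of single mouse oocytes. They were Has2, the synthase of hyaluronan, and Vcan, Tnfaip6 and Ptx3, which bind or crosslink it. Spp1 (osteopontin) is a secreted glycoprotein of the matrix, Timp1 inhibits metalloproteinases that cut the matrix, and Sdc4 is a cell surface heparan sulphate proteoglycan. Ptgs2 is the inducible prostaglandin synthase, and Ereg and Areg are the ligands. Of the 10, 9 had a count in at least 1 kept oocyte, and Areg had 0 counts in all of them. The genes were selected on their measured CPM and their share of oocytes with a count in these same libraries, so their levels are given as a description.

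Each library was 1 oocyte at metaphase II, the stage at which the egg is arrested and ready for fertilisation, from a C57Bl/6J mouse. The titles place the 202 libraries in 11 groups. Each joins a generation (F1, F2 or F3) with the diet and hormone of the F0 female that founded the lineage. The diet was high in fat and in sugar (HFHS) or control (CD), and the hormone was dihydrotestosterone (DHT, an androgen) or vehicle (Veh). The animals that gave the oocytes were descendants of that female, and the labels used here give no treatment of their own. Oocytes with at least 100000 gene counts and 4000 genes with a count were kept, which left 157 of 202 libraries. In F1 these were 13 HFHS+DHT, 14 HFHS+Veh, 8 CD+DHT and 10 CD+Veh oocytes. In F2 they were 5 HFHS+DHT, 20 HFHS+Veh, 25 CD+DHT and 16 CD+Veh oocytes, and in F3 13 HFHS+Veh, 13 CD+DHT and 20 CD+Veh oocytes. Kept libraries held 133654 to 16359078 gene counts. Titles of the form 9.2 were read as oocyte 2 of animal 9, which gave 4 F2 HFHS+Veh, 5 F2 CD+DHT and 4 F2 CD+Veh animals and 2 F3 HFHS+Veh animals with a kept oocyte. Levels are CPM, the counts of a gene per 1000000 gene counts of an oocyte, or of the counts pooled over a group. A pooled level carries an exact Poisson 95% interval in square brackets, which covers counting error only.

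Some points about the libraries bear on what follows. The 12 oocyte markers (among them Gdf9, Bmp15, Zp2, Zp3 and Mos) all had counts, and their sum had a median of 20535 CPM. The library labelled F3 CD+Veh oocyte 21 went against its label. Its oocyte markers summed to 236 CPM with 9 of 12 detected, when the next lowest library had 3867 CPM, and its 10 matrix and ovulatory genes summed to 45220.4 CPM. Its 22 cumulus and granulosa cell markers summed to 25229.7 CPM, spike-in RNA took 14.33% of its counts, and only 4603 genes had a count. Pooled levels, means and folds that it moves by over 1.5 times are given with and without it. The next highest sums of the cumulus and granulosa markers were in F3 CD+Veh oocytes 19, 17, 23 and 11 (6859, 3330, 2974 and 2566 CPM) and in F1 HFHS+Veh oocyte 1 (2553 CPM). Their oocyte markers summed to 11423, 16548, 19231, 17378 and 15603 CPM in the same order. The sum in F3 CD+Veh oocyte 11 came almost wholly from 4 markers found in nearly every oocyte (Cyp19a1, Nr5a2, Kitl and Serpine2). Its other 18 markers summed to 0.38 CPM. F2 HFHS+Veh oocyte 5.1 had 2289 CPM of cumulus and granulosa markers and 21313 CPM of oocyte markers. The characteristics of 36 oocytes contradicted their titles. The hormone differed for all 15 titled F1 HFHS+Veh and all 5 titled F2 HFHS+DHT, and the generation differed for 8 titled F2 HFHS+Veh (animal 10 and 3 oocytes of animal 5) and 8 titled F3 HFHS+Veh (animal 22). Groups follow the titles, so every comparison with F1 HFHS+Veh rests on a title that its other labels contradict.

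The promoters of 3 members are printed first. Spp1 and Timp1 are shown because their levels went up and down together most closely among the oocytes, and Areg because it alone had no count. Each is the 250 bases before a RefSeq start of the gene on GRCm38.p6, 5′ to 3′ on the gene's strand, all 3 on the plus strand. Capitals mark matches, on either strand, to a cyclic AMP response element half-site (TGACG), to a GC box (GGGCGG) or to a TATA box (TATAAA); the AP-1 site (TGANTCA) was also searched and had no match in the 3 stretches.
Spp1 (chr5:104434861-104435110): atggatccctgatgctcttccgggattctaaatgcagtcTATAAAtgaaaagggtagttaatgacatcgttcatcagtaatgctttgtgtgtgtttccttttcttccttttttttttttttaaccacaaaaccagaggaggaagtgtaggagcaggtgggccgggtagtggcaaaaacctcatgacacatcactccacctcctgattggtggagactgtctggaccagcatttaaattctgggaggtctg
Timp1 (chrX:20869916-20870165): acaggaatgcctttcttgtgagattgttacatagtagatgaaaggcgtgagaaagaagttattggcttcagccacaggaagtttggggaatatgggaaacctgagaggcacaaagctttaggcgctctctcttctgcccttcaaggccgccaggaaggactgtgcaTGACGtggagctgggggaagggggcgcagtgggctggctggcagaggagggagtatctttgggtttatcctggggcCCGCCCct
Areg (chr5:91139349-91139598): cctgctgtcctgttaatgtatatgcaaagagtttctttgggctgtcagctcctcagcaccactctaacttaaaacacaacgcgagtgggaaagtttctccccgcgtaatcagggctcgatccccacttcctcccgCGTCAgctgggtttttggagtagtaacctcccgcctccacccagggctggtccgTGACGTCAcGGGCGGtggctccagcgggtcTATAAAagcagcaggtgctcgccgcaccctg
The Spp1 stretch held a TATA box match 211 to 206 bases before the start and none of the other 3 motifs. The Timp1 stretch held a half-site at 84 to 80 bases and a GC box at 8 to 3 bases. The Areg stretch held 3 half-sites, of which those at 61 to 57 and 58 to 54 bases overlap, with a GC box at 52 to 47 bases and a TATA box at 31 to 26 bases. Over 32851 promoters of the same length, 17.8% held the half-site, 6.75% the AP-1 site, 12.4% the TATA box and 32.7% the GC box. RefSeq rows were matched for 8 of the 10 members (9 promoters), and Has2 and Ereg were not matched. The extra promoter was that of a second Spp1 start, at 104436192, and held no match to the 4 motifs. The Spp1 stretch printed here lies before the start at 104435111. Spp1 and Timp1 shared no motif of the 4 in these windows. Matches are a description of the letters and were not tested as sites.

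Spp1 was by far the most abundant member and was detected in most oocytes. It had a count in 125 of 157 oocytes (79.6%, exact Clopper-Pearson 95% interval 72.5 to 85.6%). With every oocyte thinned to 100000 counts, the expected share was 59.8%. Single oocytes spanned 0 to 31805 CPM with a median of 89.4 CPM, and without the library labelled F3 CD+Veh oocyte 21 the highest was 8173 CPM, in F1 HFHS+Veh oocyte 1. On the authors' length-scaled values (RPKM), Spp1 averaged 546 per oocyte, followed by Timp1 at 13.8, Tnfaip6 at 9.11, Sdc4 at 8.80, Vcan at 6.87 and Ptgs2 at 3.99. Ptx3, Has2 and Ereg averaged 0.304, 0.196 and 0.0056 RPKM. Without the library labelled F3 CD+Veh oocyte 21, Vcan averaged 0.986 and Ptgs2 0.994 RPKM, Spp1 428 and Sdc4 7.43 RPKM, and Timp1 and Tnfaip6 kept their places with 12.9 and 9.17 RPKM. The length that the RPKM and count values imply for Vcan varied between libraries from 4297 to 11626 bases (27 oocytes), so its place in this order is uncertain.

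In F1, Spp1 had a lowest, median and highest level of 0, 26.46 and 2270.2 CPM in HFHS+DHT oocytes and of 0, 595 and 8173 CPM in HFHS+Veh oocytes. The 3 values were 0, 233 and 1935 CPM in F1 CD+DHT and 0, 11.9 and 1668 CPM in F1 CD+Veh. In every F1 group some oocytes had no Spp1 count and others had over 1000 CPM, so all 4 groups overlapped, while HFHS+Veh reached higher than the other 3. In F2 HFHS+DHT, 4 of 5 oocytes had no count and the other had 0.14 CPM, which was 1 count. The lowest, median and highest levels were 0, 5.001 and 2128 CPM in F2 HFHS+Veh, 0, 8.62 and 1814 CPM in F2 CD+DHT and 0, 0.24 and 1150 CPM in F2 CD+Veh. In F3 the 3 values were 2.09, 1467 and 3521 CPM in HFHS+Veh. They were 0, 104 and 1088 CPM in CD+DHT and 0.49, 1192 and 31805 CPM in CD+Veh. All 3 F3 medians were above those of the F2 groups, and that of F3 CD+DHT was below those of F1 HFHS+Veh and F1 CD+DHT. Over whole generations the median was 239.6 CPM in F1, 0.93 CPM in F2 and 794 CPM in F3. Generation was not compared by a test, since F1 and 2 of the 3 F3 groups name no animals.

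**Figure D1:**
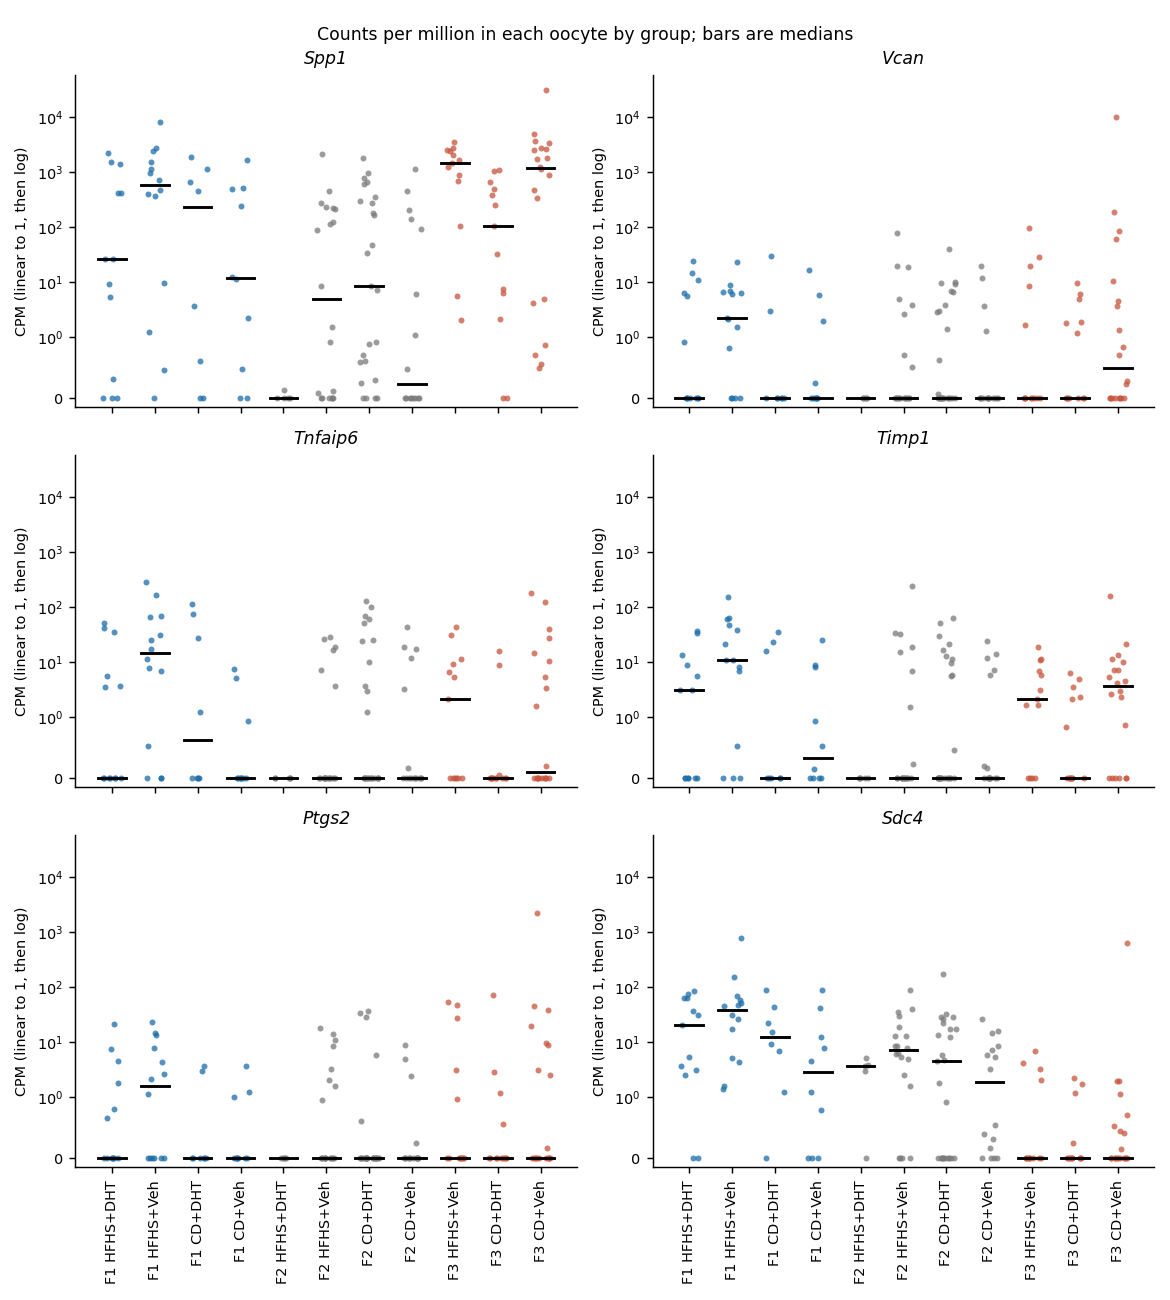
CPM of 6 members (Spp1, Vcan, Tnfaip6, Timp1, Ptgs2 and Sdc4) in each kept oocyte of the 11 groups, on an axis that is linear to 1 CPM and logarithmic above. Each point is 1 oocyte, each bar is the group's median, and colours mark the generations. Spp1 spans from under 3 CPM to over 1000 CPM in each group but F2 HFHS+DHT, and the Sdc4 medians are at 0 in the 3 F3 groups.

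Timp1 and Tnfaip6 were each found in about as many oocytes as not. Timp1 had a count in 82 of 157 oocytes (52.2%, 44.1 to 60.3%) and reached 248 CPM in F2 HFHS+Veh oocyte 5.1. Its lowest, median and highest levels in F1 were 0, 3.08 and 37.4 CPM in HFHS+DHT and 0, 10.9 and 151 CPM in HFHS+Veh. They were 0, 0 and 34.8 CPM in CD+DHT and 0, 0.34 and 25.28 CPM in CD+Veh. In F3 they were 0, 2.12 and 18.8 CPM in HFHS+Veh. They were 0, 0 and 6.32 CPM in CD+DHT and 0, 3.62 and 158 CPM in CD+Veh. The highest of these was the library labelled F3 CD+Veh oocyte 21. Tnfaip6 had a count in 67 of 157 oocytes (42.7%, 34.8 to 50.8%) and its highest level, 285 CPM, in F1 HFHS+Veh oocyte 1. Its median was above 1 CPM in F1 HFHS+Veh (14.47 CPM) and F3 HFHS+Veh (2.12 CPM) only, among the 11 groups. The library labelled F3 CD+Veh oocyte 21 had 0 Tnfaip6 counts, where a count of 0 allows up to 9.68 CPM, although it led for Spp1, Vcan and Ptgs2.

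Timp1 lies on chromosome X at 20870166 to 20874735 (GRCm38, the assembly that mm10 denotes, GENCODE vM21), inside Syn1 on the opposite strand. Whether counting used strand is not given in the sources used here. Syn1 had 91 counts in 9 kept oocytes, against 3920 for Timp1. Ptx3 (chromosome 3, 66219910 to 66225805) lies inside Veph1, also on the opposite strand, and Veph1 had 868 counts in 78 oocytes against 197 counts for Ptx3 in 20. The Ptx3 values are therefore uncertain. Vcan and Spp1 also overlap other annotated genes (Gm4117, Gm16318 and Gm42793) that are not rows of the table.

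Of the other hyaluronan genes, Vcan was found in about as many oocytes as Tnfaip6 and Has2 was low everywhere. Vcan, the large proteoglycan of the matrix (chromosome 13, 89655312 to 89742509), had a count in 69 of 157 oocytes (43.9%, 36.1 to 52.1%). Thinned to 100000 counts, the expected share was 20.8% for Vcan and 28.8% for Tnfaip6. The library labelled F3 CD+Veh oocyte 21 held 10333 CPM of Vcan and 55.4% of all its counts. Pooled over all kept oocytes Vcan stood at 12.1 CPM [11.8 to 12.4] with that library and at 5.397 CPM without it. The next highest Vcan level was 186 CPM, in F3 CD+Veh oocyte 17. Has2 had a count in 35 of 157 oocytes (22.29%, 16.05 to 29.6%) and no median above 0 in any group. Its pooled level was 0.39 to 2.86 CPM in the 10 groups with a count, and the top of that range, F3 CD+DHT, was 0.999 CPM without oocyte 13. Has2 was at 0 counts in the 6 libraries with the highest sums of cumulus and granulosa markers. Ptx3 had a count in 20 of 157 oocytes (12.7%, 7.96 to 18.99%) and a pooled level of 0.41 CPM.

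Ptgs2 (chromosome 1, 150100031 to 150108227) had a count in 54 of 157 oocytes (34.4%, 27.0 to 42.4%). Its level was 2285 CPM in the library labelled F3 CD+Veh oocyte 21, which held 31.2% of its counts, and at most 71.3 CPM in any other oocyte. The 2 RNAs named Ptgs2os and Ptgs2os2 had 4 and 34 counts. Ereg had 17 counts in 2 F1 HFHS+Veh oocytes, 16 of them in oocyte 12 at 3.38 CPM. Areg, 45953 bases from Ereg on chromosome 5, had 0 counts in 157 oocytes, which, by the limit of 3 counts used here for a count of 0, allows up to 0.0063 CPM over the pooled counts and a share of up to 1.91% of oocytes with a count. The exact 95% intervals end at 0.0077 CPM and 2.32%.

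Sdc4 was found in fewer F3 oocytes than F1 oocytes. It had a count in 103 of 157 oocytes (65.6%, 57.6 to 73.0%). In F1 its lowest, median and highest levels were 0, 20.5 and 84.7 CPM in HFHS+DHT and 1.43, 38.6 and 781 CPM in HFHS+Veh. They were 0, 12.4 and 89.6 CPM in CD+DHT and 0, 2.87 and 88.7 CPM in CD+Veh. In the 5 F2 HFHS+DHT oocytes, where Spp1 was all but absent, Sdc4 stood at 2.93, 5.21, 3.74, 3.83 and 0 CPM. In F3 its median was 0 CPM in all 3 groups, where the median of Spp1 was 104 to 1467 CPM. The share of oocytes with an Sdc4 count was 86.7% in F1, 71.2% in F2 and 37.0% in F3. For Spp1 it was 82.2%, 66.7% and 95.7%, and for Timp1 60.0%, 39.4% and 63.0%. Pooled levels of Timp1 were 14.54 CPM in F1, 7.95 CPM in F2 and 3.896 CPM in F3, so a lower pooled F3 level was not particular to Sdc4. The medians differed less for Timp1, at 3.08 CPM in F1 and 2.24 CPM in F3, than for Sdc4, at 15.6 and 0 CPM.

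The ratios between members also differed between the generations. Among the 48 oocytes with at least 1000 Spp1 counts (11 F1, 14 F2, 23 F3), Sdc4 had a median of 44.1 counts per 1000 Spp1 counts in F1, 42.6 in F2 and 0.22 in F3. Every F1 oocyte (6.21 to 96.5) was above the F3 median. Among F3 oocytes the highest ratio, 20.1, was in the library labelled F3 CD+Veh oocyte 21. Timp1 had medians of 19.51 in F1, 34.6 in F2 and 3.58 in F3, with ranges of 2.44 to 52.9, 0.86 to 124 and 0.68 to 9.55. Tnfaip6 had medians of 34.9, 62.5 and 1.79 per 1000 Spp1 counts in F1, F2 and F3. The number of F3 oocytes at 0 among the 23 was 8 for Tnfaip6 and 10 for Sdc4. The F1 oocytes of this set were mostly HFHS+Veh, whose hormone label contradicts the title, and did not include CD+Veh. The F3 oocytes were mostly CD+Veh, so generation and lineage cannot be told apart in these medians. Within HFHS+Veh, Sdc4 ran from 25.35 to 96.5 per 1000 Spp1 counts in F1, 31.06 to 78.8 in F2 and 0 to 3.26 in F3. The generation labels of those F2 oocytes and of F3 animal 22 contradict their titles. In CD+DHT the ratio was 19.81 in the F1 oocyte, 0 to 107 in F2 and 0 to 4.39 in F3. In CD+Veh, which had no F1 oocyte, F2 (0.378 to 158) and F3 (0 to 20.1) overlapped. The ratios are given as a description, and no test between generations was made.

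Spp1, Timp1 and Tnfaip6 went up and down together from oocyte to oocyte. Over the 157 oocytes, which share animals and depth, Spearman's rho of log2(CPM + 1) was 0.80 for Spp1 with Timp1, 0.73 for Tnfaip6 with Timp1 and 0.68 for Spp1 with Tnfaip6. Within generations Spp1 and Timp1 had 0.85 in F1, 0.78 in F2 and 0.84 in F3. Timp1 and Tnfaip6 had 0.86, 0.75 and 0.50, and Spp1 and Tnfaip6 0.78, 0.77 and 0.58, so both pairs with Tnfaip6 were lower in F3. Vcan had 0.61 with Timp1 and Ptgs2 had 0.51 with Timp1. Sdc4 had 0.79 with Spp1 in F1, 0.51 in F2 and 0.31 in F3. Has2 had rho from -0.06 to 0.09 with the other 8 members that had counts. The number of members with a count ran from 0 in 10 oocytes to 8 in 4 oocytes, all 4 of them F1 oocytes of the HFHS groups.

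**Figure D2:**
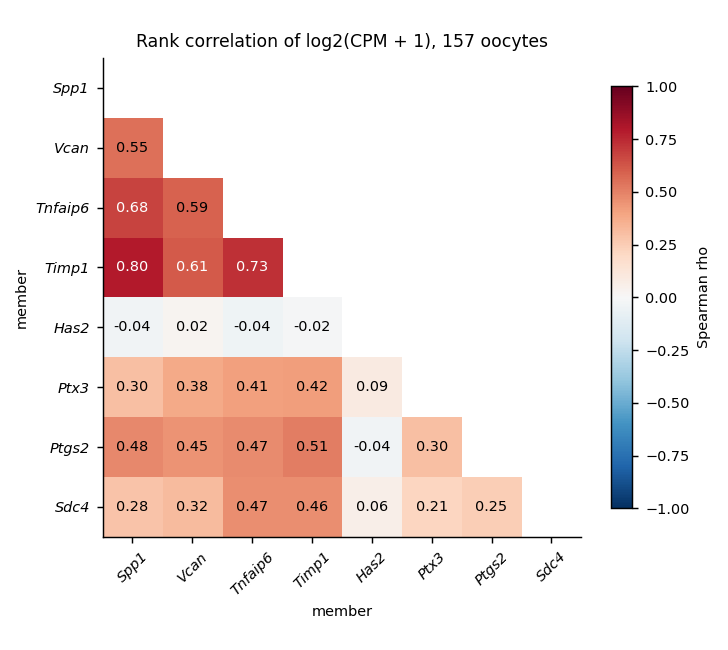
Spearman's rho between 8 members over the 157 kept oocytes, on log2(CPM + 1); each square is a pair, with its rho written in it and coloured by the scale at the right. The squares of Spp1, Timp1 and Tnfaip6 hold 0.68 to 0.80, and the squares of Has2 (its row and its column) hold -0.04 to 0.09.

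The genes whose levels were most like those of the members were looked for among 7372 genes by Spearman's rho with the mean of the members' log2 levels. They were Nupr1, a stress-response protein (0.88), Mgst1, a microsomal glutathione transferase (0.87), and Ephx2, a soluble epoxide hydrolase (0.84). The lysosomal protease Ctsl (0.84), the gap junction protein Gja1 (0.83), Wbp5 (0.83), the cell cycle regulator Rgcc (0.82) and the fatty acid desaturase Scd2 (0.79) followed. The last of the 10 were the galectin Lgals1 (0.78) and the elongation factor Eef1a1 (0.77). Mgst1 and Gja1 were also on the list of cumulus and granulosa markers. The 3 genes closest to Timp1 (Nupr1, Mgst1 and Ephx2) included 2 of the 3 closest to Spp1 (Ephx2, Mgst1 and Rgcc). Vcan was closest to Ctsl (0.67), Tnfaip6 to Nupr1 (0.79), and Ptgs2 to Fst (0.60), which encodes follistatin and is on the marker list too. Sdc4 had other neighbours, namely B4galt1, a galactosyltransferase (0.73), Actb (0.67) and Nfia (0.64).

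Markers of cumulus and granulosa cells moved with these genes. All 22 markers of the list had counts, with a summed level of 44.8 to 25229.7 CPM per oocyte and a median of 1099 CPM. Serpine2 (1024 CPM pooled) and Cyp19a1 (92.3 CPM) made up most of it and, with Kitl and Nr5a2, had counts in over 90% of the oocytes. The other 18 markers summed to a median of 61.8 CPM, led by Akr1c18 (62.3 CPM pooled), Hsd3b1 (36.1 CPM), Gja1 (27.8 CPM) and Mgst1 (25.49 CPM). Their sum had a Spearman's rho of 0.82 with Spp1, 0.79 with Timp1, 0.69 with Tnfaip6, 0.64 with Vcan and 0.56 with Ptgs2. It was 0.37 for Sdc4, 0.37 for Ptx3 and -0.01 for Has2. Within generations Sdc4 had 0.70 in F1, 0.46 in F2 and 0.43 in F3. With the sum of all 22 markers, the mean of the members had a rho of 0.46, against 0.84 with the 18; this division of the list was made after its values were seen. Spp1 had a rho of -0.20 with the gene counts of the library. Of the leukocyte markers, Cd52 was among the 3 genes closest to Tnfaip6 (0.75), while Ptprc had counts in 5 oocytes. The summed leukocyte markers had a rho of 0.36 with the mean of the members. Of the 9 theca and stroma markers, Insl3 had 0 counts and Cyp17a1 had a count in 1 oocyte. Others of that list did have counts. In F2 HFHS+Veh oocyte 5.1, 6 of the 9 had counts, with Dcn at 25.9 CPM, and in F3 CD+Veh oocyte 19 it was 0 of 9. The summed theca and stroma markers had a rho of 0.14 with the mean of the members. Where the RNA of the members and of these markers came from was not tested. If attached cells gave it, more cells and more RNA per cell cannot be told apart.

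**Figure D3:**
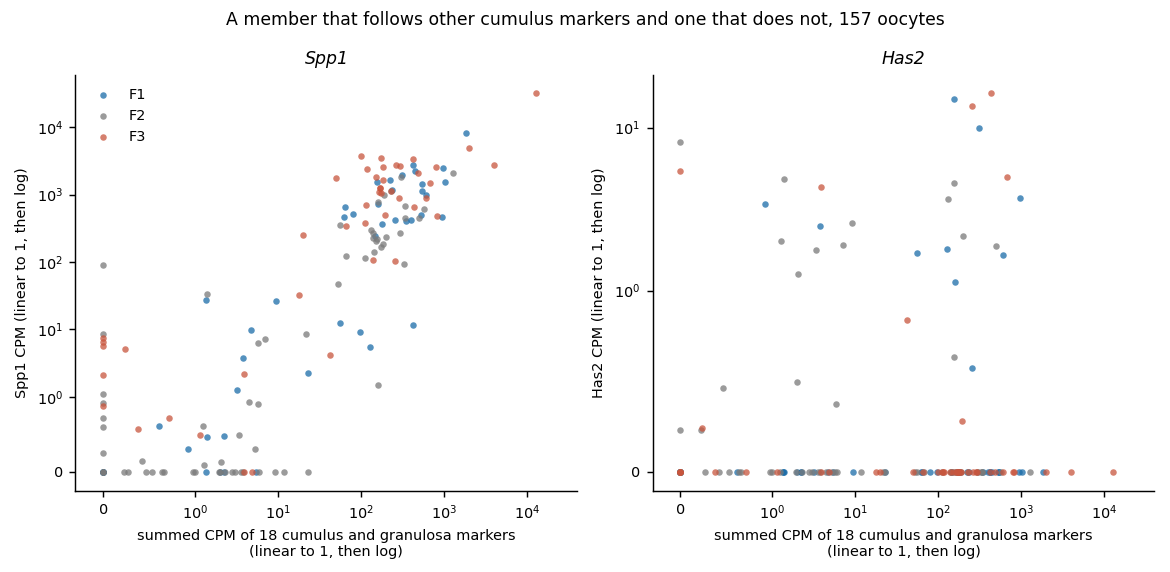
CPM of Spp1 and of Has2 against the summed CPM of 18 cumulus and granulosa markers, on axes that are linear to 1 CPM and logarithmic above; each point is 1 of the 157 kept oocytes, coloured by generation. Spp1 goes up with the markers (rho 0.82), though not evenly at their low end, and Has2 does not (rho -0.01).

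Other genes of the ovulatory response were read from a list of 25 genes of luteinising hormone, growth factor and prostaglandin signalling and of the matrix. All 25 had a count in at least 1 kept oocyte. Adam17, the protease that releases epidermal growth factor-like ligands, was in all 157 oocytes at 196 CPM pooled, and the corepressor Nrip1 (27.0 CPM) and the receptor Egfr (19.37 CPM) were in over 90%. Runx2 (15.99 CPM), the prostaglandin receptor Ptger4 (11.6 CPM) and Egr1 (10.9 CPM) came next. Runx2 and Egr1 had their highest levels, 3735 and 1282 CPM, in the library labelled F3 CD+Veh oocyte 21. The luteinising hormone receptor Lhcgr had counts in 6 oocytes, the progesterone receptor Pgr in 2, and Hapln1 and Has1, of the hyaluronan matrix, in 1 each.

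In F2, where animals could be told apart, the question was whether the members differed between lineages of DHT-treated or HFHS-fed females and their controls. None of the 8 members tested passed in any of the 3 comparisons. edgeR's quasi-likelihood test on counts summed per animal, with Benjamini-Hochberg adjustment over 11962 genes, called 0 genes in CD+DHT against CD+Veh (0% of genes tested). It also called 0 in HFHS+Veh against CD+Veh (0%) and 0 in CD+DHT against HFHS+Veh (0%). Genes with an unadjusted p under 0.05 numbered 220, 118 and 125, and DESeq2 called 2, 1 and 1 genes, none of them a member. The animals are separate by their titles only, and p-values measure the spread between them.

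Spp1 stood at 103, 129, 390.4, 3.71 and 699.8 CPM in the summed counts of the 5 F2 CD+DHT animals (17, 6, 7, 8 and 9). It stood at 1.499, 33.4, 52.6 and 587 CPM in the 4 HFHS+Veh animals (10, 19, 4 and 5) and at 1.10, 411, 31.4 and 154 CPM in the 4 CD+Veh animals (13, 14, 2 and 3). The means were 265 ± 282 CPM in CD+DHT (SD, n = 5), 169 ± 280 CPM in HFHS+Veh (SD, n = 4) and 149.5 ± 187 CPM in CD+Veh (SD, n = 4). Each group held animals under 5 CPM and others over 400 CPM, and the groups overlapped. The log2 fold change of Spp1 was 1.01 (SE 1.40, edgeR p = 0.478, adjusted p = 0.9999) for CD+DHT over CD+Veh. It was 0.00 (SE 1.44) for HFHS+Veh over CD+Veh and 1.01 (SE 1.40) for CD+DHT over HFHS+Veh. Without CD+DHT animal 9 the value over CD+Veh was 0.01, and without HFHS+Veh animal 5 the HFHS+Veh over CD+Veh value was -2.398.

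Ptgs2 and Sdc4 had the lowest unadjusted p of the members in CD+DHT against CD+Veh. Ptgs2 had 0.06, 8.22, 3.104, 0 and 9.17 CPM in the CD+DHT animals, against 0, 0.08, 0.20 and 2.401 CPM in the CD+Veh animals. Its log2 fold change was 3.03 (SE 1.603, edgeR p = 0.0773, adjusted p = 0.9999), and the value was 5.68 without CD+Veh animal 3, which had 61 of the CD+Veh counts. The lowest value was 2.31 with an animal left out and 0.16 over all settings. Sdc4 had 3.503, 8.74, 20.5, 4.01 and 64.3 CPM in the CD+DHT animals, against 1.596, 14.9, 3.12 and 7.99 CPM in the CD+Veh animals. Its log2 fold change was 1.82 (SE 0.91, edgeR p = 0.0619, adjusted p = 0.9999), and 0.42 without CD+DHT animal 9. For both genes the animals of the 2 groups overlapped. Ptx3 had a count in 1 of 5 CD+DHT animals, at 0.38 CPM, against 2 of 4 CD+Veh animals, at 1.59 and 0.75 CPM.

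**Figure D4:**
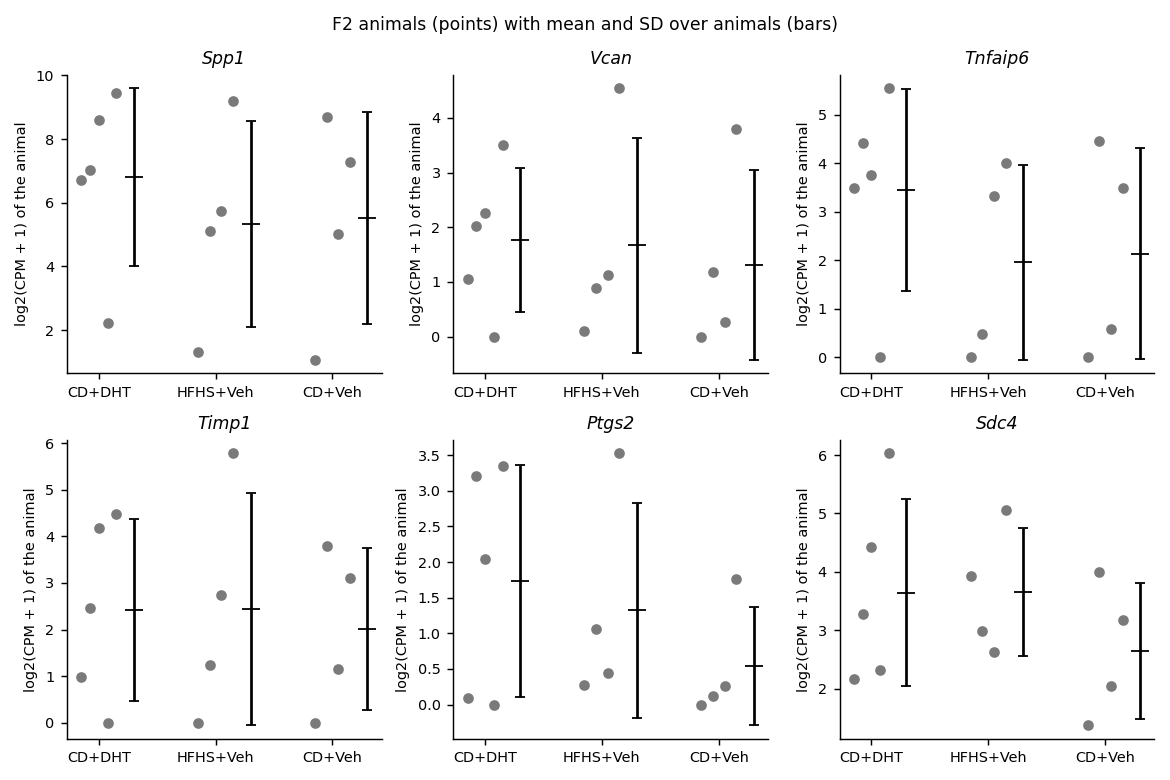
Levels of 6 members in the summed counts of each F2 animal, as log2(CPM + 1), in CD+DHT, HFHS+Veh and CD+Veh; each point is 1 animal, and each bar to the right of the points gives the mean and SD over the animals. The 3 groups overlap for each member shown.

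Over the 8 members tested the median log2 fold change was 0.96 in CD+DHT against CD+Veh, 0.46 in HFHS+Veh against CD+Veh and 0.29 in CD+DHT against HFHS+Veh. Over all genes it was -0.01, 0.02 and -0.02. The 3 comparisons share animals. None of the 13 tested genes of the 25 on the ovulatory list and none of the 15 tested of 22 cumulus and granulosa markers passed in any of them (edgeR, 0 of 11962 genes called in each). Among the 61 oocytes of the 13 F2 animals, differences between animals made up 21.004% of the variance of Spp1 on the log2(CPM + 1) scale, 33.2% of that of Vcan, 25.51% of that of Timp1 and 19.35% of that of Sdc4. The share was 11.6% for Tnfaip6, 7.27% for Ptx3, 4.79% for Ptgs2 and 0% for Has2, and the median over 7249 genes was 14.7%. Oocytes of 1 animal thus varied more than the animals did. In F2 CD+DHT animal 9, for example, Spp1 ran from 0.59 to 1814 CPM over 5 oocytes.

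In F1 and F3 at least 1 group of each comparison named no animals, so each group was 1 sample, no test was made, and folds have no replicate check. The 6 members with a pooled level of at least 1 CPM over all kept oocytes (Spp1, Vcan, Tnfaip6, Timp1, Ptgs2 and Sdc4) entered, and at least 2-fold was taken as a difference in size.

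Spp1, Tnfaip6, Timp1 and Ptgs2 had higher pooled levels in F1 oocytes of the CD+DHT lineage than in those of the CD+Veh lineage. In F1 CD+DHT against CD+Veh, 4 of the 6 members were at least 2-fold higher, as were 6.15% of 10495 genes, and 0 were at least 2-fold lower, as were 8.64% of genes. Spp1 pooled to 285 CPM [273 to 297] in CD+DHT and 52.9 CPM [49.9 to 56.0] in CD+Veh, a log2 fold of 2.43. The mean of the single oocytes was closer, at 524 CPM in CD+DHT and 295 CPM in CD+Veh, and by that measure 2 members were at least 2-fold higher. Tnfaip6 pooled to 16.5 CPM [13.75 to 19.54] in CD+DHT and 2.13 CPM [1.56 to 2.83] in CD+Veh (log2 fold 2.95, and 5.08 without CD+Veh oocyte 11). Timp1 pooled to 7.09 CPM [5.35 to 9.204] in CD+DHT and 0.86 CPM [0.52 to 1.34] in CD+Veh, with counts in 3 of 8 CD+DHT and 6 of 10 CD+Veh oocytes. Ptgs2 had only 10 counts in CD+DHT and 9 in CD+Veh, a log2 fold of 1.63 [0.18 to 3.11]. Without CD+DHT oocyte 2 it was 0.39, under 2-fold. The median log2 fold was 2.03 over the 6 members and -0.02 over all genes. The 18 cumulus and granulosa markers pooled to a sum of 66.2 CPM in CD+DHT and 44.7 CPM in CD+Veh. Of the 14 markers of the whole list that entered, 1 was at least 2-fold higher and 4 were at least 2-fold lower.

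In F1 HFHS+Veh against CD+Veh, all 6 members were at least 2-fold higher, as were 9.87% of 10573 genes. None was at least 2-fold lower (0 of 6), as were 2.53% of genes. The log2 folds were 4.48 for Spp1, 4.84 for Timp1, 4.503 for Tnfaip6, 3.799 for Sdc4, 3.42 for Ptgs2 and 1.66 for Vcan. Spp1 pooled to 1183 CPM [1173 to 1193] in HFHS+Veh against 52.9 CPM in CD+Veh. Averaged over single oocytes the 2 groups were nearer, with 1363 CPM of Spp1 for HFHS+Veh against 295 CPM for CD+Veh. By that mean Timp1 had 30.2 against 4.37 CPM and Sdc4 92.6 against 15.8 CPM. Vcan had 4.64 against 2.48 CPM, under 2-fold. Of the 6, Tnfaip6 alone differed more by the mean, at 49.3 against 1.36 CPM. F1 HFHS+Veh oocyte 1 held 61.3% of the Spp1 counts and 71.4% of the Sdc4 counts of its group, and without it the log2 folds were 3.25 for Spp1 and 2.13 for Sdc4. By pooled level, all 6 members stayed at least 2-fold higher when any 1 oocyte was left out. The 18 cumulus and granulosa markers pooled to a sum of 455 CPM in HFHS+Veh against 44.7 CPM in CD+Veh, and 10 of the 15 markers of the list that entered were at least 2-fold higher. Their part in the result was not tested, and the hormone label of all 15 F1 HFHS+Veh oocytes contradicts the title.

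In F1 HFHS+DHT against HFHS+Veh, 4 of 6 members were at least 2-fold lower, as were 9.97% of 10573 genes, and 0 were at least 2-fold higher, as were 2.69% of genes. Spp1 pooled to 529 CPM [518 to 539.8] in HFHS+DHT and 1183 CPM in HFHS+Veh (log2 fold -1.16). Without HFHS+Veh oocyte 1 that value was 0.07, while Tnfaip6 had -2.10 with that oocyte and -1.16 without it. Sdc4 had -1.85 and, without it, -0.18, and Timp1 -1.25 and -0.25. HFHS+DHT oocyte 12 held 62.5% of the Spp1 counts of its own group, and without it Spp1 stood at -2.19. Ptgs2 had a log2 fold of 0.48 with oocyte 12 and -1.55 without it. The 18 markers pooled to a sum of 236 CPM in HFHS+DHT and 455 CPM in HFHS+Veh. The F1 comparisons share the HFHS+Veh or the CD+Veh oocytes.

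In F3 CD+DHT against CD+Veh, 5 of 6 members were at least 2-fold lower, as were 13.8% of 10562 genes, and 0 were at least 2-fold higher, as were 11.9% of genes. Spp1 pooled to 601 CPM [594 to 608] in CD+DHT and 1286 CPM [1277 to 1295] in CD+Veh, a log2 fold of -1.10. Leaving out any 1 oocyte gave values of -1.63 to -0.85. The mean of single oocytes was 315 CPM in CD+DHT and 2980.1 CPM in CD+Veh, or 1463 CPM in CD+Veh without the library labelled oocyte 21. Tnfaip6 had -1.51, and 93.3% of its CD+DHT counts came from oocyte 15, without which it was at -4.93. It was at -0.78, under 2-fold, without CD+Veh oocyte 19. Ptgs2 was at -7.33 without CD+DHT oocyte 16. Vcan had a log2 fold of -5.35, or -3.21 without the library labelled CD+Veh oocyte 21. Without that library Ptgs2 was at -0.72 in place of -2.34 and Sdc4 at 1.09 in place of -2.22. Spp1 then pooled to 1126 CPM in CD+Veh, which put it under 2-fold against the 601 CPM of CD+DHT. This left 2 members at least 2-fold lower, Vcan and Tnfaip6, and 1 at least 2-fold higher, Sdc4. The 18 markers pooled to a sum of 172 CPM in CD+DHT and 464 CPM in CD+Veh, and their part in the result was not tested.

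In F3 HFHS+Veh against CD+Veh, 2 of 6 members were at least 2-fold lower, as were 18.9% of 10529 genes, and 0 were at least 2-fold higher, as were 8.53% of genes. Both of the lower members, Vcan (log2 fold -2.32) and Sdc4 (-1.66), turned on the library labelled CD+Veh oocyte 21, without which they were at -0.18 and 1.66. Without that library Ptgs2 was at 0.92 in place of -0.70. Spp1 pooled to 1528 CPM [1501 to 1556] in HFHS+Veh against 1286 CPM in CD+Veh (log2 fold 0.25), Timp1 had 0.16 and Tnfaip6 -0.40. The 5 kept oocytes of animal 22, whose generation label contradicts the title, pooled to 1622 CPM of Spp1, and the 8 of animal 26 to 1416 CPM. The 2 F3 comparisons share the CD+Veh oocytes.

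**Figure D5:**
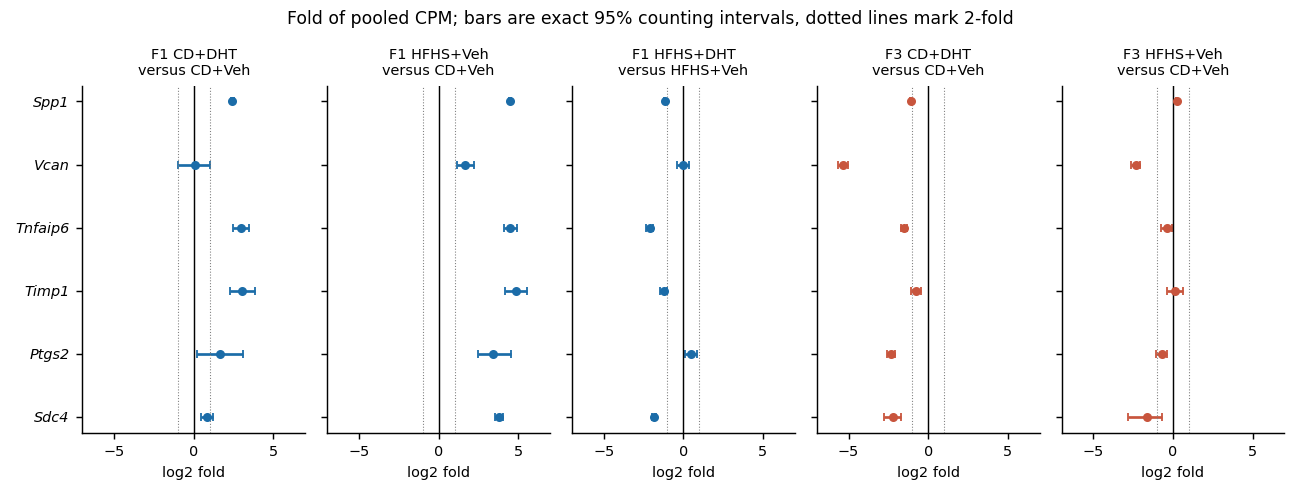
Log2 folds of pooled CPM of 6 members in the 5 comparisons of F1 and F3 groups; each point is 1 member, each horizontal line its exact 95% counting interval, and the dotted lines mark 2-fold. All 6 members lie above the upper dotted line in F1 HFHS+Veh against CD+Veh. Vcan lies lowest in F3 CD+DHT against CD+Veh, where the CD+Veh level rests on the library labelled oocyte 21.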

How the data were processed

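RNA of single oocytes was made into libraries by Smart-seq2, per the labels' protocols. Reads were processed with STAR 2.4.2a, Seurat 2.0 and the build mm10, per the submitters' processing notes. Strand use and annotation: not given in the sources used here. Both tables were used unaltered: the authors deposited raw gene counts and RPKM (reads per kilobase and library total). The count table has 24582 lines, of which 24489 are gene lines (23995 symbols, lines of a symbol summed), 92 are spike-ins and 1 is eGFP with 0 counts. CPM are counts per 1000000 gene counts, and spike-ins stayed out of totals and tests.

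Of the 202 libraries, 45 were left out for fewer than 100000 gene counts or 4000 genes. Groups come from the titles. Libraries were compared for copies and 0 pairs were identical. F2 counts were summed per animal and tested with edgeR 4.0.16 (quasi-likelihood, TMM, filterByExpr) in R 4.3.3 with Benjamini-Hochberg adjustment at 0.05. Alternatives were DESeq2 1.42.0, limma 3.58.1, other filters and scalings, and samples left out. F1 and F3 groups were compared as pools with exact counting intervals, without a test, for genes with a pooled level of at least 1 CPM; a count of 0 was read against a floor of 3 counts. The tests were tried on simulated counts. Libraries have no molecular identifiers, so intervals cover counting error only. The members and all gene lists were chosen with earlier results of these data known. Named genes are the 10 members, the 10 genes most like their mean and the 3 most like each (of genes with at least 5 CPM on average and counts in at least 25% of oocytes), and the 6 most abundant genes of the ovulatory and the cumulus and granulosa list. Other genes named (low or absent list members and the leukocyte, theca and stroma markers) were chosen after their values were seen.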

Additional observations from a re-analysis of the deposited data

Results flagged for a closer look

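Of 41 groups of 4 to 10 values of the members, 17 had a highest value far from the rest by Dixon's criterion. Chance gives about 1 group in 20, and many of these groups are mostly at 0, which makes a lone positive value stand apart.

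F2 HFHS+Veh animal 5 stood apart for 4 members. It had 587 CPM of Spp1 (the other 3 animals 1.499 to 52.6 CPM), 22.35 CPM of Vcan (0.068 to 1.19 CPM), 54.1 CPM of Timp1 (0 to 5.68 CPM) and 10.51 CPM of Ptgs2 (0.204 to 1.08 CPM). F2 CD+Veh animal 3 had 12.99 CPM of Vcan (others 0 to 1.26 CPM) and 2.401 CPM of Ptgs2 (0 to 0.201 CPM). F2 CD+DHT animal 9 had 64.3 CPM of Sdc4 (others 3.503 to 20.5 CPM) and 0.382 CPM of Ptx3, of which the other 4 animals had no count.

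In F1 CD+DHT, oocyte 10 stood apart with 29.9 CPM of Vcan (others 0 to 3.05 CPM) and 9.95 CPM of Has2 (0 to 2.48 CPM). In F1 CD+Veh, oocyte 3 had 1668 CPM of Spp1 (others 0 to 520 CPM) and 25.28 CPM of Timp1 (0 to 8.73 CPM). Oocyte 12 of that group had 16.8 CPM of Vcan (0 to 5.78 CPM) and 3.74 CPM of Ptgs2 (0 to 1.25 CPM). Oocyte 11 had 1.70 CPM of Has2 (others 0), and oocyte 14 had 88.7 CPM of Sdc4 (0 to 42.1 CPM). The Spp1 level of 0.14 CPM in F2 HFHS+DHT oocyte 1 was a single count in a group otherwise at 0.

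The 1 library left out of F1 HFHS+Veh for low depth held 252 Spp1 counts (2551 CPM) and 24 Sdc4 counts (243 CPM). Both levels lay under the highest of the kept oocytes of its own group, 8173 CPM of Spp1 and 781 CPM of Sdc4. The highest kept F1 CD+Veh oocytes had 1668 CPM of Spp1 and 88.7 CPM of Sdc4.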

How the results depend on the processing

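No paired analysis was possible because animals of different groups share no numbers. The cause of a change below was not tested unless the setting itself leaves out samples. In F2, DESeq2 called 2, 1 and 1 genes in CD+DHT against CD+Veh, HFHS+Veh against CD+Veh and CD+DHT against HFHS+Veh; edgeR called 0 under the other settings and 0 to 0 with each animal left out. No member passed under any of these, and the lowest adjusted p of a member was 0.763.

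F2 log2 fold changes of members that turned sign in some setting had wide ranges with each animal left out. In CD+DHT against CD+Veh, Vcan ran from -0.59 to 3.04. In HFHS+Veh against CD+Veh the ranges were -2.398 to 1.62 for Spp1, -2.03 to 3.41 for Vcan, -1.39 to 0.97 for Tnfaip6, -1.21 to 2.54 for Timp1 and -1.12 to 1.23 for Ptx3. Spp1 there was -1.1999 without contradictory labels and -0.73 without oocyte 5.1, and Ptx3 was 0.11 without contradictory labels and 0.044 and 0.037 with limma on CPM and RPKM. In CD+DHT against HFHS+Veh the ranges were -0.0066 to 3.41 for Spp1, -1.503 to 2.57 for Vcan, -1.34 to 2.13 for Timp1, -0.55 to 0.71 for Has2 and -0.68 to 1.301 for Sdc4. limma on CPM and RPKM gave Timp1 0.13 and 0.13, Ptgs2 -0.302 and -0.074 and Sdc4 -0.57 and -0.36, and on CPM Vcan 0.035. Without contradictory labels and without oocyte 5.1, Vcan was 0.27 and 0.39 and Timp1 0.81 and 0.76.

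The rich oocytes left out below are F1 HFHS+Veh oocyte 1 and F3 CD+Veh oocytes 19 and 21. F3 CD+Veh oocytes 17, 23 and 11 have higher cumulus and granulosa sums than the F1 oocyte and stayed in. Without the 4 markers found in nearly every oocyte, the sums were 1960, 809 and 0.38 CPM in these and 1819 CPM in the F1 oocyte. In F1, members at least 2-fold higher in CD+DHT against CD+Veh numbered 2 by mean CPM, 2 by mean RPKM and 3 to 6 with each oocyte left out. HFHS+Veh against CD+Veh kept 6 to 6 with each oocyte left out, and by mean CPM Vcan fell under 2-fold. In HFHS+DHT against HFHS+Veh, 2 were lower at 3-fold, 1 without the rich oocytes (Spp1 then 0.075, and -2.19 to 0.075 with each oocyte left out), and 1 to 5 lower and 0 to 1 higher with each oocyte left out. In F3 CD+DHT against CD+Veh, 1 was higher and 2 lower under the stricter filter, 3 lower at 3-fold, 1 higher and 1 lower without the rich oocytes, and 0 to 1 higher and 2 to 6 lower with each oocyte left out. Sdc4 there was 1.15 under the stricter filter, 1.33 without the rich oocytes and -3.17 to 1.09 with each oocyte left out, the highest without oocyte 21. In F3 HFHS+Veh against CD+Veh, 5 were lower by mean CPM, 5 by mean RPKM and 1 without animal 22. Most of the 5 by either mean turned on the library labelled CD+Veh oocyte 21. Without it the CD+Veh means were 18.7 CPM for Vcan, 4.97 for Timp1, 6.81 for Ptgs2 and 0.388 for Sdc4. Those of HFHS+Veh were 11.9, 4.79, 10.25 and 1.27 CPM. None of the 4 was then 2-fold lower, and Sdc4 was over 2-fold higher. Tnfaip6 stayed over 2-fold lower, at 8.41 CPM in HFHS+Veh against 21.49 CPM. Under the stricter filter 2 were higher and 0 lower, and without the rich oocytes 1 and 0; with each oocyte left out, 0 to 1 were higher and 0 to 4 lower. Under the stricter filter and without the rich oocytes, which both leave out oocyte 21, Vcan there was 0.24 and 0.057 and Sdc4 1.55 and 1.898. Sdc4 was -1.83 to 1.66 with each CD+Veh oocyte left out and -2.39 at the lowest with an HFHS+Veh oocyte left out.

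Depth limits the shares: at 100000 counts they were 59.8% for Spp1, 20.8% for Vcan, 28.8% for Tnfaip6, 29.9% for Timp1, 5.78% for Has2, 4.25% for Ptx3, 16.6% for Ptgs2 and 37.0% for Sdc4.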
